A study of Mus musculus with 2 samples.

Results

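The genes described here are 7 effector genes of microfold cells, Gp2, Tnfaip2, Marcksl1, Anxa5, Prnp, Pglyrp1 and Aif1, chosen by symbol. All 7 were found among the 23411 genes measured, each on a single RefSeq transcript, and all 7 passed the expression minimum that 17438 genes passed. They were measured in medullary thymic epithelial cells (mTEC), the cells of the inner thymus that show self antigens to developing T cells. MHC-II high mTEC (1 library) and MHC-II low mTEC (1 library) were sorted by surface MHC class II from the thymus of B6 mice. Per the labels, the cells came from a pool of 3 mice, so animals cannot be told apart. No other treatment, allele or age was given in the labels, and neither group had a second library.

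Microfold cells are epithelial cells of the intestine that lie over lymphoid follicles, take up particles and microbes at their apical side and pass them to immune cells below. In the intestine they form under the cytokine RANKL, whose receptor is encoded by Tnfrsf11a, through NF-kB and the transcription factors Spi-B and Sox8. Medullary epithelium also contains cells that use lineage factors of peripheral epithelia, and some of these resemble microfold cells. None of the 7 genes is restricted to microfold cells, so reads of a sorted fraction cannot be assigned to such cells.

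Promoter sequence is shown for 3 of the 7 genes, namely the gene with the lowest ratio between the libraries (Gp2), the gene of high level with the highest ratio (Prnp), and the gene whose promoter held matches to the motifs searched (Pglyrp1). The 250 bases before the annotated start were read from RefSeq sequences of build GRCm38.p6, which is not the build of the deposited tables, mm9. The intervals are chr7:119459273-119459522 on the minus strand for Gp2, chr2:131909678-131909927 on the plus strand for Prnp and chr7:18884440-18884689 on the plus strand for Pglyrp1. Capitals mark motif matches on either strand, and sequences run 5′ to 3′ along the gene.
Gp2: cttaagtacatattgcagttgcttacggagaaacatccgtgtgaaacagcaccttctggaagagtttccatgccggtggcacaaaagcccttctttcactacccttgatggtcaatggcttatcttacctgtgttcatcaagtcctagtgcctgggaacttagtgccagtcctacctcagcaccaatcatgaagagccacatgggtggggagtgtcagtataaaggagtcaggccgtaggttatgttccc
Prnp: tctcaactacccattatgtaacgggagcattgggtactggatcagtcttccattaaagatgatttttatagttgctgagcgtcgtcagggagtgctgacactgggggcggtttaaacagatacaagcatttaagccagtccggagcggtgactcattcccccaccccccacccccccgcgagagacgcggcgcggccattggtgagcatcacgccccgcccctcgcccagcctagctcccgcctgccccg
Pglyrp1: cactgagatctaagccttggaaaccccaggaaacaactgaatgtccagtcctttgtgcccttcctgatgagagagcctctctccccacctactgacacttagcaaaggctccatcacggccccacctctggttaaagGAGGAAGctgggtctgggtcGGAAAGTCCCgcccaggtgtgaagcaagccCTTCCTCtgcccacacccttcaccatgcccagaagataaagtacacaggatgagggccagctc

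The motifs were searched on both strands. They were GAGGAAG for the ETS family to which Spi-B belongs, AACAAT for Sox factors, a strict NF-kB consensus whose reverse complement is the run of 10 capitals in the Pglyrp1 promoter, and a looser form of it in which 3 bases of that run, the fifth to the seventh, may be any base. Pglyrp1 held 2 ETS matches, which begin 113 bases (plus strand) and 63 bases (minus strand) before the start. It also held a minus-strand NF-kB match beginning 93 bases before the start, between the ETS matches, and this single site matches both NF-kB forms. The other 6 promoters held no match, and no member held the Sox motif. Over 32851 promoters of the same length, 10.6% held the ETS motif, 0.14% the strict NF-kB motif, 4.65% the looser NF-kB motif and 9.42% the Sox motif. In base composition the members differed. The Aif1 promoter had 43.6% G and C with 1 CpG, Gp2 48.4% with 4 and Pglyrp1 55.6% with 3. Anxa5 and Prnp had 58.8% each with 13 and 17 CpG, Marcksl1 60.4% with 12 and Tnfaip2 65.6% with 21, against a median of 52.4% and 6 CpG over all promoters.

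The microfold genes differed among themselves in how their levels compared between the fractions, with Prnp, Marcksl1 and Aif1 at the upper end and Gp2 and Anxa5 at the lower end of the ratios. Read counts were set relative to the TMM-scaled read total of each library (CPM), and a gene was called when the exact 95% Clopper-Pearson interval of its ratio lay wholly beyond 2-fold. No member was called higher and no member was called lower in the MHC-II high library. Of the 17438 genes compared, 14.5% were called higher and 10.9% lower, 25.4% in all. The call depends on the scaling of the totals: with unscaled totals Marcksl1, Prnp and Aif1 were called higher, and with the totals behind the deposited RPKM these 3 and Tnfaip2. Over all genes compared, 3453 of 17444 were called higher with unscaled totals and 7232 of 16016 with the RPKM totals. Of all genes called, 57.0% were higher, 72.9% with unscaled totals and 93.9% with the RPKM totals. Under the main scaling the ratio, MHC-II high over MHC-II low, was above 1 for 4 members and below 1 for 3 (Gp2, Anxa5 and Pglyrp1), of which Pglyrp1 was above 1 with unscaled totals and Pglyrp1 and Anxa5 with the RPKM totals. The median log2 ratio of the 7 was 0.40, beside −0.01 over all genes compared. The members spanned 2.07 log2 units, from Gp2 at the 13.2 percentile of all ratios to Aif1 at the 83.6 percentile. The quartiles of all genes lay at −0.58 and 0.65, and 70.4% of all genes had ratios between those of Gp2 and Aif1. With 1 library per group no test across samples is possible, and each interval covers counting error only. In such bulk libraries, fewer cells of a type and less RNA per cell cannot be told apart.

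Gp2 encodes a membrane-anchored receptor by which intestinal microfold cells bind type I fimbriae of bacteria, and pancreatic acinar cells secrete the same protein. It had 37112 reads or 242.8 CPM in the MHC-II high library, against 24867 reads or 489.8 CPM in the MHC-II low library. Under this scaling the level was the higher in the low library. The ratio was 0.496 (interval 0.488 to 0.504, log2 −1.01), so the interval reached just inside 2-fold and the gene was not called. With totals scaled so that epithelial genes were centred on 0, an alternative added after the data were seen, the log2 ratio was −1.10 and Gp2 was called lower. With the totals used for the deposited RPKM, the authors' reads relative to transcript length and library total, it was −0.01 (−0.03 to 0.01). Of 13 acinar marker genes 11 passed the minimum, with 5 called higher and 1 called lower, and their summed level was 76.4 CPM in the MHC-II high against 28.4 CPM in the MHC-II low library. None was at 0, and their part in the Gp2 value was not tested. Ctrb1, a digestive protease gene of that list, had 30.0 CPM (high) against 3.43 CPM (low) and was called higher. Cuzd1 was at 6.04 against 0.414 CPM, with 21 reads in the low library, and was above the minimum by its high-library level alone. Prss2, a trypsinogen gene, was at 11.8 against 10.8 CPM, and Rbpjl, an acinar transcription factor gene, was the gene called lower, at 0.517 against 2.17 CPM.

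Prnp encodes the membrane-anchored prion protein, which microfold cells carry on their surface and neurons express strongly. It had 118797 reads or 777.3 CPM in the MHC-II high library, against 21711 reads or 427.6 CPM in the MHC-II low library. The ratio was 1.82 (1.79 to 1.84, log2 0.86). Of 8 neuronal and glial marker genes, all past the minimum, 2 were called higher and 1 lower, with a sum of 642.0 CPM (high) against 361.7 CPM (low), of which the synaptic gene Syt1 gave 393.4 against 117.7 CPM. The microtubule protein gene Map2 was at 105.3 against 150.7 CPM, and Stmn2, a neuronal gene, was the gene called lower, at 3.09 against 14.5 CPM. No gene of that list was at 0, and its part in the Prnp value was not tested.

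Pglyrp1 encodes a secreted protein that binds bacterial peptidoglycan and is stored in neutrophil granules. It had 19477 reads or 127.4 CPM in the MHC-II high library, against 7460 reads or 146.9 CPM in the MHC-II low library. The ratio was 0.867 (0.844 to 0.891, log2 −0.21), the value nearest to 1 among the members, and its sign was positive with unscaled read totals and with the RPKM read totals. Of 10 neutrophil genes 9 were measured and 7 passed the minimum, with 5 called higher and 0 called lower. Their summed level was 271.4 CPM (high) against 138.3 CPM (low). S100a8, a calcium-binding protein gene of neutrophils, was at 67.2 against 7.56 CPM and the myeloperoxidase gene Mpo at 48.0 against 2.80 CPM. Lactoferrin (Ltf), also made by epithelia, was at 77.7 against 109.9 CPM. No measured neutrophil gene was at 0, and their part in the Pglyrp1 value was not tested.

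**Figure D1:**
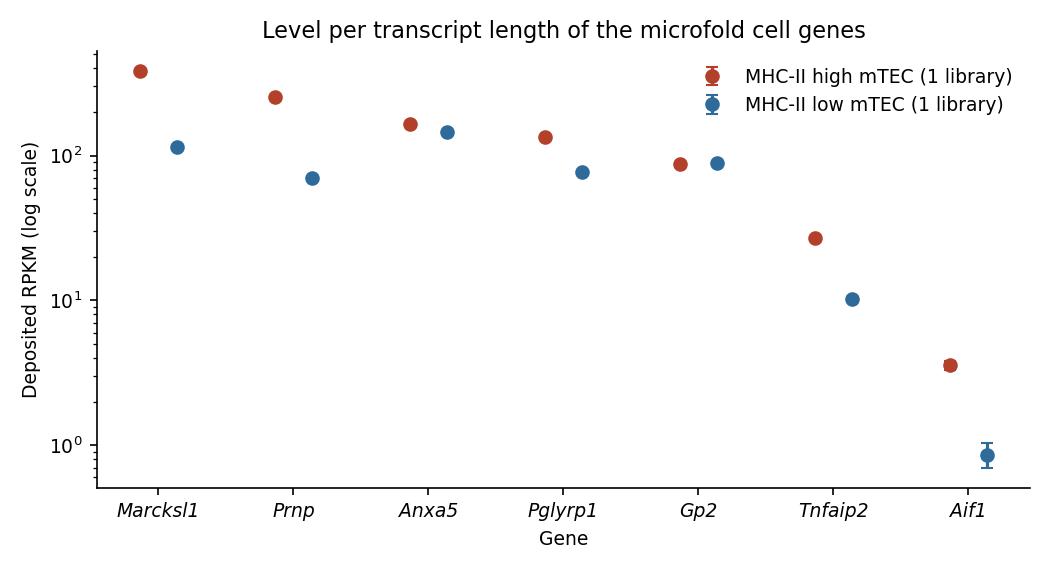
Deposited RPKM (log axis) of the 7 genes in the MHC-II high library (left point of each pair) and the MHC-II low library (right point), 1 library each; bars are exact Poisson 95% intervals of the read counts and are mostly smaller than the points. Marcksl1 and Prnp lead in the high library at 383.9 and 254.1 RPKM, Anxa5 leads in the low one at 144.9 RPKM, and Aif1 is lowest in both.

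The other members act at the membrane and on the actin skeleton. Marcksl1 encodes a MARCKS-like protein that links the plasma membrane and actin. It had 131446 reads or 860.1 CPM in the MHC-II high library, against 26020 reads or 512.5 CPM in the MHC-II low library. The ratio was 1.68 (1.66 to 1.70, log2 0.75). Tnfaip2, also known as M-Sec, encodes a protein that drives the outgrowth of thin membrane tubes. It had 20673 reads or 135.3 CPM in the high library, against 5201 reads or 102.4 CPM in the low library, a ratio of 1.32 (1.28 to 1.36, log2 0.40). Marcksl1 and Tnfaip2 thus lay on the same side as Prnp, at smaller ratios.

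Anxa5 encodes annexin A5, which binds phosphatidylserine in the presence of calcium and occurs in most cell types. It had 60894 reads or 398.4 CPM in the MHC-II high library, against 35537 reads or 700.0 CPM in the MHC-II low library. The ratio was 0.569 (0.562 to 0.577, log2 −0.81), second only to Gp2 on that side among the members, and log2 0.19 with the RPKM read totals. Among genes of other cell types, all 8 endothelial genes were called lower, with a sum of 80.1 CPM (high) against 574.7 CPM (low), and so were 5 of 7 fibroblast genes, with 190.4 against 1088 CPM. None of these 15 genes was at 0, and their part in the Anxa5 and Gp2 values was not tested.

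Aif1 encodes the calcium-binding, actin-bundling protein Iba1, known from macrophages and from microfold cells, in which it takes part in uptake. It was the member with the fewest reads, with 665 reads or 4.35 CPM in the MHC-II high library and 106 reads or 2.09 CPM in the MHC-II low library. The ratio was 2.08, but on so few reads its interval ran from 1.70 to 2.58 (log2 0.76 to 1.37), so the gene was not called. Of 10 macrophage and monocyte genes 9 were measured and 8 passed the minimum, with 4 called higher and 0 lower. Their summed level was 492.2 CPM (high) against 152.0 CPM (low). The lysozyme gene Lyz2 was at 361.7 against 74.0 CPM and the growth factor receptor gene Csf1r at 20.5 against 4.69 CPM. Cd14, a monocyte surface protein gene, was at 51.6 against 42.7 CPM, and Mertk, a phagocytic receptor gene, at 1.30 against 2.09 CPM. Lyz2 gave most of the sum in the high library. Of 7 dendritic cell genes past the minimum, 4 were called higher and 0 lower. The list summed to 177.2 CPM (high) against 32.6 CPM (low), of which the chemokine receptor gene Ccr7 gave 135.4 against 11.5 CPM, while Itgax was at 1.90 against 3.19 CPM and Clec9a at 0.766 against 1.497 CPM. No measured gene of either list was at 0, and their part in the Aif1 value was not tested.

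**Figure D2:**
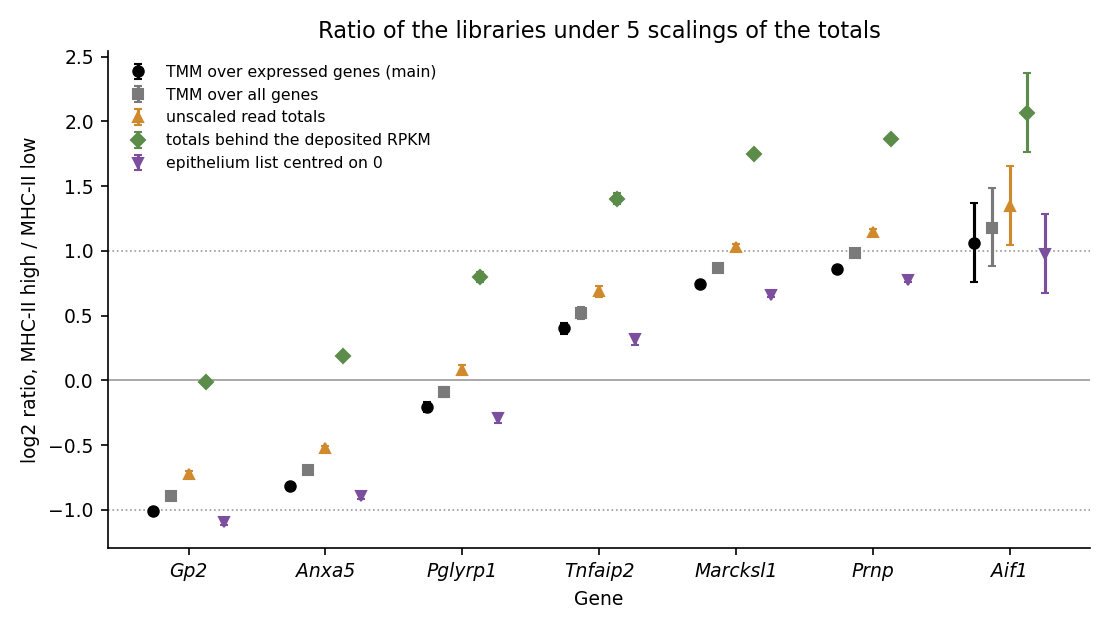
The log2 ratio of MHC-II high over MHC-II low for each gene under 5 scalings of the read totals, with exact 95% Clopper-Pearson intervals of the reads (counting error only); dotted lines mark 2-fold. The order of the genes, from Gp2 at −1.01 to Aif1 at 1.06 under the main scaling, is the same under each scaling, while the position of 0 moves, so that the ratio of Pglyrp1 is positive with unscaled totals and those of Pglyrp1 and Anxa5 with the totals behind the deposited RPKM.

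Because a scaling moves all genes of a library alike, ratios between members do not depend on it. Per unit of length, Prnp was at 2.90 times the level of Gp2 in the MHC-II high library and at 0.79 times in the MHC-II low library, a 3.67-fold difference (Wald 95% interval 3.59 to 3.75). Marcksl1 was at 4.38 times the level of Gp2 in the high and 1.29 times in the low library, a 3.38-fold difference (3.32 to 3.46). Relative to Gp2, Tnfaip2 differed 2.66-fold (2.57 to 2.76), Pglyrp1 1.75-fold (1.70 to 1.80) and Aif1 4.2-fold (3.42 to 5.16). Anxa5 stayed closest to Gp2, at 1.88 times its level in the high and 1.64 times in the low library, a 1.15-fold difference (1.12 to 1.17). These intervals cover counting error only and have no replicate behind them.

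In level per length, most members were among the abundant transcripts. By deposited RPKM, which the authors computed per transcript length, the order in the MHC-II high library was Marcksl1 (383.9), Prnp (254.1), Anxa5 (165.3), Pglyrp1 (133.7), Gp2 (87.7), Tnfaip2 (27.1) and Aif1 (3.55). In the MHC-II low library it was Anxa5 (144.9), Marcksl1 (114.2), Gp2 (88.3), Pglyrp1 (77.0), Prnp (69.8), Tnfaip2 (10.2) and Aif1 (0.851). Neighbours in each order differed beyond their counting intervals, for which no spread between replicates stands. Among the 17438 genes compared, Marcksl1 held rank 57 (high) and 158 (low), Prnp 92 and 302, Anxa5 170 and 129, Pglyrp1 223 and 266, and Gp2 429 and 221. Tnfaip2 held rank 1899 and 2781, and Aif1 10293 and 12410, below the median gene of 5.08 RPKM in the high and 2.47 RPKM in the low library. Of the RPKM summed over the 7 genes, Marcksl1 gave 36.4% (high) and 22.6% (low), Gp2 8.31% and 17.5%, and Anxa5 15.7% and 28.7%.

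Genes that direct microfold cell formation were set beside the effector genes. Tnfrsf11a, among them, is also on the list of mature mTEC genes, so this list is not particular to microfold cells. Of 12 such genes, all past the minimum, 4 were called higher, 1 was called lower and 7 were not called, with a median log2 ratio of 0.89. At the top of the pathway, the RANKL receptor gene Tnfrsf11a was at 215.4 against 82.7 CPM (ratio 2.60) and its adaptor gene Traf6 at 184.2 against 62.2 CPM (2.96), both called higher. The decoy receptor gene Tnfrsf11b was at 258.7 against 56.8 CPM (4.55). The RANKL gene Tnfsf11 had only 434 against 59 reads, a ratio of 2.44 whose interval reached inside 2-fold. Among NF-kB subunits, Relb had a ratio of 2.00 and Nfkb2 of 1.72, while Nfkb1 and Rela were at 1.14 and 1.17, and none was called.

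Under the main scaling Spib and Sox8 had ratios near 1, while Esrrg and Atoh8 lay far from it on opposite sides. The log2 ratios of Spib and Sox8 were 0.54 and 0.57 with unscaled totals. They were 1.26 and 1.28 with the totals behind the deposited RPKM. Spib was at 492.2 CPM in the MHC-II high and 412.7 CPM in the MHC-II low library, a ratio of 1.19 (log2 0.25, interval 0.23 to 0.28). Sox8 was at 20.7 against 17.0 CPM, a ratio of 1.22 (log2 0.28, 0.17 to 0.39). Esrrg, a nuclear receptor gene that acts in microfold cell maturation, was called higher at 47.4 against 13.3 CPM (3.56). Atoh8, which restrains microfold cell formation in the mouse intestine, was the gene called lower, at 14.7 CPM (high) against 70.2 CPM (low), 4.78-fold higher in the low. Per length, Gp2 stood at 0.695 times the level of Spib in the high library and at 1.67 times in the low library. Tnfaip2 stood at 0.214 times Spib (high) and 0.194 times (low), the smallest shift against Spib among the members. Relative to the epithelial adhesion gene Epcam, Gp2 was at 0.408 times in the high and 0.871 times in the low library, and Prnp at 1.18 and 0.688 times. Epcam has the median ratio of the epithelium list, so these shifts restate the scaling that centres that list on 0.

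**Figure D3:**
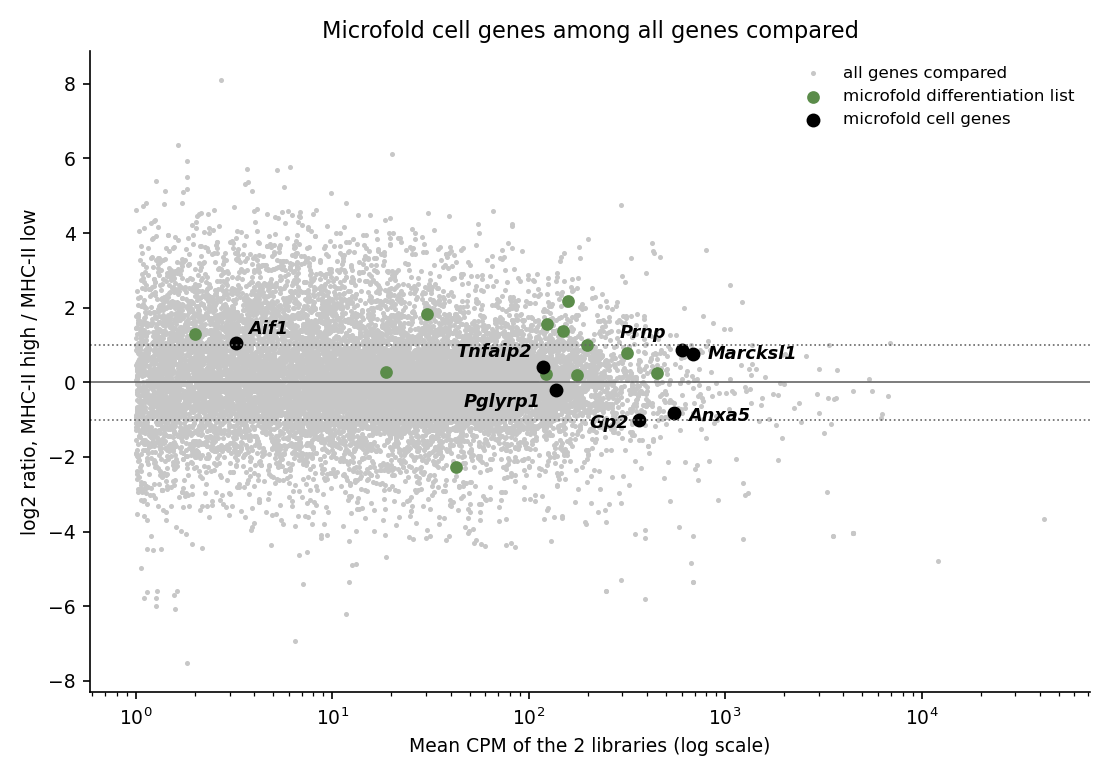
Log2 ratio of MHC-II high over MHC-II low against the mean CPM of the 2 libraries (log axis) for the genes compared (grey), 12 microfold differentiation genes (green) and the 7 microfold cell genes (black); dotted lines mark 2-fold. Apart from Aif1 and Gp2, the members lie at high CPM and between the 2-fold lines. Gp2, also at high CPM, lies just past the lower line at −1.01, and Aif1 just past the upper line at 1.06.

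A further 10 genes described in microfold cells were mixed. Of these, 3 were called higher, 1 was called lower and 6 were not called, with a median log2 ratio of 0.21. Ctsh, a cathepsin gene, was called higher at 167.5 against 74.2 CPM (2.26). Psg18 was at 3.83 against 0.453 CPM, a ratio of 8.46 on 23 reads in the low library, and only its level in the high library brought it past the minimum. The chemokine genes Ccl20 and Ccl9 had ratios of 1.68 and 1.32. Umod, a relative of Gp2 and its neighbour in the gene table, was at 11.3 and 11.2 CPM (log2 0.01, negative when epithelial genes were centred on 0). The clusterin gene Clu was at 623.9 against 1174 CPM (log2 −0.91), Scg5 at 43.4 against 62.2 CPM (−0.52) and the complement receptor gene C5ar1 at 1.79 against 2.88 CPM (−0.69), and all 3 signs were positive with the RPKM read totals. Icam2, an adhesion gene also known from endothelium, was called lower at 1.49 against 9.02 CPM, as were all 8 genes of the endothelial list, whose part in the Icam2 value was not tested.

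The sort and the makeup of the libraries were set beside these values with marker lists. Of 10 genes of mature mTEC, 8 were called higher and 0 lower, with Aire, the regulator of self-antigen expression, at 570.7 against 21.0 CPM, and of 8 genes of immature mTEC 6 were called lower and 0 higher. The mature list includes MHC class II genes, on whose product the sort selects, so it is no independent check of the sort. The 2 genes of that list that were not called were MHC class II genes. H2-Aa was at 4485 against 2240 CPM (ratio 2.00) and H2-Ab1 at 4128 against 3266 CPM (1.26). With the totals behind the deposited RPKM all 10 genes were called higher. The epithelium list had 1 of 7 genes higher and 0 lower, with a sum of 5295 CPM (high) against 5897 CPM (low). Of 14 lineage factors of tissue-like mTEC, Spib and Sox8 among them, 2 were called higher and 1 lower, with a median of 0.26. T and B cell genes gave 3 of 8 higher and 1 lower, and erythroid genes 2 of 3 past the minimum lower. The erythroid list summed to 61.6 CPM (high) against 2142 CPM (low), and its part in the member values was not tested. The libraries held 138368535 reads (high) and 56077479 reads (low) on genes, and a transcript with no symbol took 0.679% (high) and 7.08% (low) of them.

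**Figure D4:**
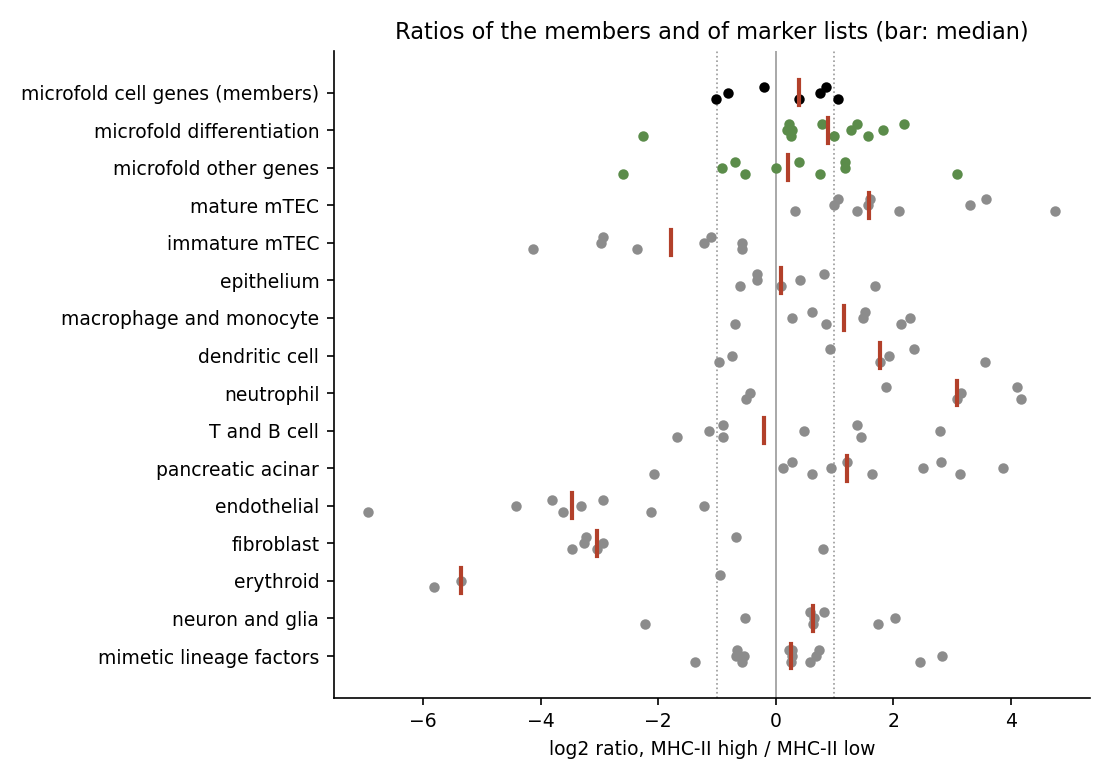
Log2 ratio of MHC-II high over MHC-II low for each gene past the minimum (points, staggered for legibility), by list, with the median of each list as a red bar; dotted lines mark 2-fold. The 7 microfold cell genes (black) lie on both sides of 0 (with the totals behind the deposited RPKM only Gp2 is below 0) with a median of 0.40, between the mature mTEC list at 1.59 and the immature mTEC list at −1.79. The median over all genes compared, −0.01, also lies between those lists.

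The gene closest to each member in CPM over the 2 libraries, by Euclidean distance on the log2 scale, was the ribosomal protein gene Rplp1 for Gp2 (distance 0.01; 242.2 against 486.2 CPM), Atf5 for Tnfaip2 (0.02), Hnrnpa2b1 for Marcksl1 (0.03), Perp for Anxa5 (0.12), Cd164 for Prnp (0.15), Trim25 for Pglyrp1 (0.03) and Syt6 for Aif1 (0.03). With only 2 libraries such closeness is a description, and 17 genes lay within 0.1 of Tnfaip2, 15 within 0.1 of Pglyrp1 and 11 within 0.1 of Aif1. No member had the same pair of read counts as another gene.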

How the data were processed

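Poly-A RNA of MHC-II high and MHC-II low mTEC was sequenced from about 100 ng of total RNA per library, with 15 PCR cycles and 2 ends of 100 bases, per the series' design text and the labels, with a kit that does not keep strand. Bowtie 1.0.0, CASAVA, bedtools and the build mm9 are named in the submitters' processing notes. The annotation and all settings are not given in the sources used here. The authors deposited, per the file headers, a read count, a length and an RPKM for each RefSeq transcript. Each deposited RPKM equalled the count per length and per 213854095 (high) or 142330178 (low) reads. Stray lines (18 and 36) were left out and the 840 lines of further copies in the high table summed, and 29800 accessions with equal lengths in both tables were kept. Symbols came from RefSeq (29233) and GENCODE (173), and 394 accessions had none. The transcript with the most reads stood for its gene.

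CPM used TMM totals from edgeR 4.0.16 in R 4.3.3, fitted over genes averaging 1 CPM or more (152834157 high, 50769794 low), the minimum also used for comparisons. Ratios carry exact 95% Clopper-Pearson intervals, counts exact Poisson intervals (scipy 1.17.1). PCR reads without molecular identifiers are not independent molecules, so intervals cover counting error only. No source used here says if both reads of a pair entered the counts, in which case the intervals would be too narrow. The deposited counts summed over transcripts to 191391401 (high) and 74029717 (low), below the RPKM totals in both libraries and by the larger share in the low one. On simulated data for 23411 genes of this comparison, 0 of 50 genes changed 1.5-fold and 50 of 50 changed 3-fold were called, with 0 of 17234 unchanged genes. The simulated counts were Poisson draws with known totals, the model behind the intervals, and changes were placed only in genes at 5 CPM or more. The simulation therefore checks the calculation and gives no error rate for real libraries. Named were the members, the genes of the 2 microfold lists, up to 4 genes per marker list (most reads, largest ratio), the nearest gene by CPM and the neighbours in gene order. Some genes of these lists are not reported here. Epcam, Mertk, Itgax, Clec9a, Rbpjl and H2-Ab1 were named outside that rule after their values were seen. Motifs were searched in the 250 bases before the start, without the bases after it that the plan had included. Members and lists were chosen with earlier results of these data known. With 1 library per group, edgeR's quasi-likelihood test has no residual degrees of freedom and was not run.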

Additional observations from a re-analysis of the deposited data

How the results depend on the processing

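No paired analysis was possible because each group has 1 library. Taking the longest transcript, summing transcripts, reading missing transcripts as 0 or asking for a mean CPM of at least 5 called no member, though Aif1 was then below the last of these minimums. The log2 ratios under the first 3 of these settings stayed within their counting intervals. Each member rests on a single transcript whose reads were the same there, so only the library totals changed. Those 3 settings therefore could not test the choice of transcript for the members. Scaling moved them. Log2 ratios of Gp2, Tnfaip2, Marcksl1, Anxa5, Prnp and Pglyrp1 were −0.73, 0.69, 1.03, −0.53, 1.15 and 0.0815 with unscaled totals (3 members and 7 differentiation genes higher, beside 3453 of 17444 genes). They were −0.90, 0.51, 0.86, −0.70, 0.98 and −0.0916 with median-of-ratios size factors and −0.91, 0.50, 0.85, −0.71, 0.96 and −0.10 without the 10 most abundant genes of each library in the totals. They were −0.0097, 1.40, 1.75, 0.19, 1.86 and 0.80 with the totals behind the deposited RPKM, where Aif1 was at 2.06, 4 members were higher, and of 16016 genes 7232 were higher and 471 lower. There 11 differentiation genes and 5 of the other microfold genes were higher, with medians of 1.89 and 1.21. The shift of the median of all genes was 0.29 with unscaled and 1.01 with RPKM totals, and of all called genes 57.0% were higher, 72.9% with unscaled and 93.9% with RPKM totals. A further 2 scalings were added after the data were seen. TMM over all genes gave −0.89, 0.52, 0.86, −0.69, 0.98 and −0.0873, and centring epithelial genes on 0 gave −1.10, 0.32, 0.66, −0.90, 0.78 and −0.29, with 1 member, Gp2, lower, beside 2182 of 17361 genes.

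Other thresholds moved the counts by construction. Beyond 1.5-fold, 3 members were higher and 2 lower, against 3973 and 3562 of the 17438 genes compared, with 7 differentiation genes higher and 2 other microfold genes lower. Beyond 4-fold it was 853 and 571 of all genes, and 1 gene higher in each microfold list. By point ratio beyond 2-fold, 1 member was higher (Aif1) and 1 lower (Gp2), against 3032 and 2342 of 17438 genes. Without a minimum 3822 genes were lower, against 1907, and with a mean CPM of at least 5, 1652 were higher, against 2530. Over all settings above, scalings included, 61 results for the members, the microfold lists and all genes moved, and 142 did not. Of the counts and medians of the marker lists, 50 moved and 496 did not. A count moved if it changed by over 1.5 times, and a median if it passed the quartiles of its list. A log2 ratio moved if it passed its counting interval. List medians cannot move where only the fold threshold or the use of the interval changed. Such medians are among the unmoved results of each tally. The log2 ratios of the members under the 3 transcript settings, where their reads stayed the same, are among the unmoved results of the first tally. Depth limits Aif1 most, with 106 reads in the low library.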

Other observations

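The genes beside the members in the RefSeq gene table had values of their own. Exoc3l4, next to Tnfaip2, was called higher at 124.4 CPM in the MHC-II high and 56.2 CPM in the MHC-II low library, a log2 ratio of 1.15, against 0.40 for Tnfaip2. Hdac1, next to Marcksl1, was at 31.1 against 53.0 CPM (log2 −0.77), while Marcksl1 was at 0.75. Mill2 and Ccdc61, on either side of Pglyrp1, were at 1.75 against 3.23 CPM (log2 −0.89) and 9.97 against 12.02 CPM (−0.27). Fam229a, on the other side of Marcksl1, was below the expression minimum. The gene Prn overlaps Prnp in that table and was not analysed here, nor were the neighbours of Anxa5 and Aif1.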
